A study of Mus musculus with 9 samples.

Results

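The 6 GATA transcription factor genes of the mouse (Gata1 to Gata6) and the 2 genes of their FOG cofactors (Zfpm1 and Zfpm2) were followed in cultured cardiac fibroblasts in which Gata4 or Tbx20 was knocked down. Members were taken by gene symbol, and all 8 were matched among the 38924 genes of the count table. RNA sequencing covered 9 libraries in 3 groups of 3, called control, Gata4 KD and Tbx20 KD, with replicates a, b and c in each and 31214828 to 41950397 counts per library. All cells were adult mouse cardiac fibroblasts (8 to 10 weeks old) of the RosaCas9-EGFP line on a C57BL/6 background, in which Cas9 and a green fluorescent protein are expressed, in controls too. They were kept 3 days in culture, sorted as CD45-CD31-CD90+ cells, grown for 6 more days and transfected with guide RNAs. Gata4 KD and Tbx20 KD cells received 2 guides for their target, and control cells received scrambled guides. No later sort of transfected cells is described, so a library may mix edited and unedited cells, and fewer cells with a transcript cannot be told apart from less RNA per cell. The study describes the libraries of a group as biological replicates, but no label ties one to an animal or culture, so p-values measure the spread between these libraries.

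GATA factors bind DNA at the motif that gave them their name, through a pair of zinc fingers that are closely alike across the family. GATA4, GATA5 and GATA6 act mainly in heart, gut and gonad, and GATA4 is needed to form the heart. GATA1, GATA2 and GATA3 are best known from blood, endothelium and lymphocytes. The FOG proteins do not need to bind DNA themselves but dock onto the first GATA finger, often to recruit corepressors, and FOG2 (Zfpm2) is the cofactor of GATA4 in the heart.

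Fibroblast markers were high in all 9 libraries, with 7 of 7 present and a summed level of 8453 to 12424 CPM, that is, counts relative to the scaled library total. Cardiomyocyte markers summed to at most 1.85 CPM, with Nppa at 0 throughout. Endothelial markers summed to 35.1 to 55.5 CPM and leukocyte markers to 21.2 to 49.9 CPM, with the T cell gene Cd3e at 0. The erythroid, megakaryocyte and mast cell list summed to 7.18 to 10.1 CPM, mostly Pf4, with Hbb-bs at 0 and Cpa3 at no more than 1 count. Of these lists and the epicardial one, 2 had ranges in Gata4 KD that were separate from control. The 5 epicardial markers summed to 8.11 to 15.7 CPM in Gata4 KD, 23.3 to 44.8 CPM in control and 25.4 to 41.2 CPM in Tbx20 KD. Most of that sum was Lrrn4, at 2.09 to 2.74 CPM in Gata4 KD against 15.7 to 32.5 CPM in control, and of the 5 genes 2 (Lrrn4 and Upk3b) were lower without overlap, while Wt1, Krt19 and Msln overlapped. The fibroblast list summed to 8453 to 11016 CPM in Gata4 KD and 11114 to 11814 CPM in control. Of its 7 genes, 3 (Col1a1, Vim and Tcf21) were lower without overlap and 4 overlapped, among them Pdgfra, at 512 to 668 CPM in Gata4 KD against 384 to 524 CPM in control. Over all genes tested in Gata4 KD against control, 13.8% had separate ranges in either direction. The part of these marker shifts in the results below was not tested.

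The 2 Gata4 guides define which part of the family was aimed at, so their target sites are shown with the neighbouring PAM in capitals. Positions are in GRCm38, from the study's guide list matched to GENCODE M21 transcripts.
Gata4 sgRNA1: cagagagtgtgtcaattgtgGGG
Gata4 sgRNA3: gcaggactgggctgtcgaagGGG
Guide sgRNA1 matched chr14:63204711-63204730 on the minus strand, in coding sequence of exon 3 of 7, and guide sgRNA3 matched chr14:63240581-63240600 on the plus strand, in coding sequence of exon 2. The predicted cuts fell at codon 220 and codon 184 of 442, 35.87 kb apart in the gene. The first predicted cut lies inside the first GATA zinc finger pattern (residues 217 to 241) and the second lies before both fingers, the other one being at residues 271 to 295.

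**Figure D1:**
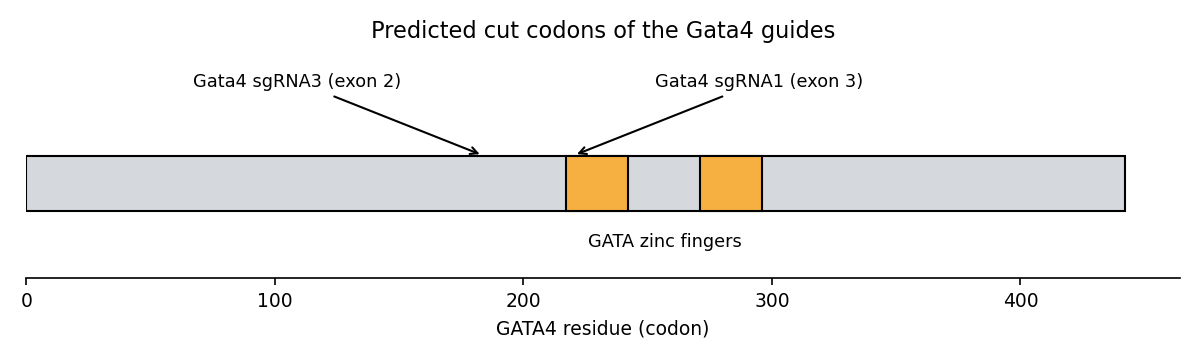
The GATA4 protein drawn to scale in residues (x axis), with the 2 zinc finger patterns as orange boxes and arrows at the codons where the 2 Gata4 guides are predicted to cut. The predicted cut of the exon 2 guide is at codon 184, before both fingers, and that of the exon 3 guide at codon 220, within the first finger.

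Because sgRNA1 lies in the finger, the most alike part of the family, the spliced transcripts of the other members were searched for similar sites followed by an NGG PAM. Over the 79 residues that span both fingers, Gata3 shared 89.9% of residues with Gata4, Gata2 87.3%, Gata6 84.8%, Gata5 84.8% and Gata1 78.5%. The closest site was in coding sequence of Gata3, exon 4 of 6, at chr2:9868883-9868902 on the minus strand, with 4 mismatches to sgRNA1. It is printed with mismatched bases and PAM in capitals.
Gata3 site: cagGgagtgtgtGaaCtgCgGGG
Counted from 1 at the 5′ end of the guide, the differences were A4G, C13G, T16C and T19C. For each of the Gata4 guides and each other member, the fewest mismatches at any site ranged from 4 to 10 of 20 bases. Cutting at these sites was not measured.

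Gata4 was by far the most abundant member per length in control cells and fell in Gata4 KD. Gata4 (ENSMUSG00000021944, chr14:63198922-63271692, minus strand) had 6084, 5524 and 5548 counts in control a, b and c, or 166, 155 and 167 CPM. In Gata4 KD a, b and c it had 1714, 1697 and 2368 counts, or 54.0, 46.7 and 65.5 CPM. Every Gata4 KD library was therefore below every control, and replicate c kept the most. Relative to the control mean, 33.2%, 28.8% and 40.3% of the transcript remained. The means were 162 ± 6.83 CPM in control and 55.4 ± 9.48 CPM in Gata4 KD (SD, n = 3), and the log2 fold change was -1.55 (SE 0.12, 95% interval -1.83 to -1.27, edgeR adjusted p 0.00272). The counts span the whole gene, so they do not show which of the remaining transcripts carried an edit.

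**Figure D2:**
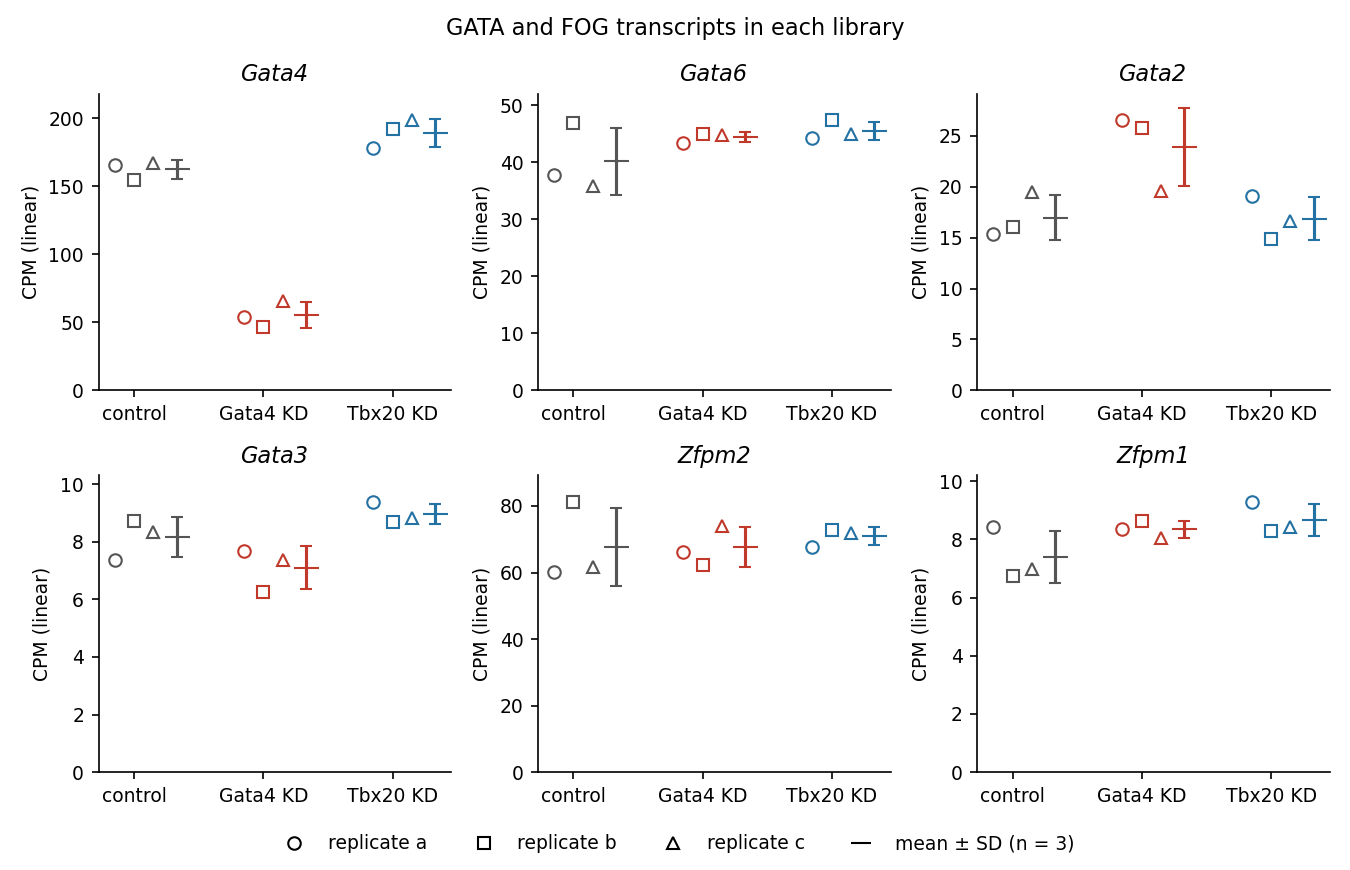
CPM (linear y axes from 0) of the 6 detected members in each library, with replicates a, b and c as circles, squares and triangles and the group mean ± SD (n = 3) at the right of each group. Gata4 dropped from 155 to 167 CPM in control to 46.7 to 65.5 CPM in Gata4 KD, while Gata6 and Zfpm2 of Gata4 KD lay inside the control range, whose highest point for both is replicate b.

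The question for the rest of the family was whether a paralog or cofactor changed when Gata4 fell. In Gata4 KD against control, 6 of the 8 members passed the filter on low counts and 1 passed an adjusted p of 0.05, the target itself, where 0.380% of all 14468 genes tested passed. At an unadjusted p under 0.05 there were 2, Gata4 and Gata2, against 8.54% of all genes. The ranges of the groups were separate for the same 2 members, where 13.8% of all genes had separate ranges. The median log2 fold change of the 6 was 0.07, beside -0.02 over all genes tested.

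Gata6, which often acts with GATA4 in heart development, overlapped between Gata4 KD and control. Gata6 (ENSMUSG00000005836, chr18:11052064-11085635, plus strand) had 37.7, 46.9 and 35.8 CPM in control a, b and c and 43.4, 45.0 and 44.8 CPM in Gata4 KD a, b and c. The 3 Gata4 KD libraries lay close together, above control a and c and below control b. Means were 40.1 ± 5.90 and 44.4 ± 0.85 CPM (SD, n = 3), and the log2 fold change was 0.14 (SE 0.11, 95% interval -0.11 to 0.40, edgeR adjusted p 0.792). On the linear scale this interval runs from 0.928-fold to 1.32-fold, so a rise above 1.32-fold lies outside it. Leaving out 1 library moved the log2 fold change between 0.07 without control c (edgeR adjusted p 0.995) and 0.27 without control b (edgeR adjusted p 0.102), the control with the most Gata6.

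Gata2, known for blood stem cells, mast cells and endothelium, had the largest positive difference of the family. Gata2 (ENSMUSG00000015053, chr6:88193891-88207032, plus strand) had 15.3, 16.0 and 19.5 CPM in control a, b and c, from 563, 573 and 646 counts. In Gata4 KD a, b and c it had 26.5, 25.7 and 19.5 CPM, from 841, 934 and 706 counts. Libraries a and b of Gata4 KD stood well above control, but Gata4 KD c exceeded control c by only 0.0703 CPM, and with library size alone as the scaling the ranges overlapped. The log2 fold change was 0.50 (SE 0.15, 95% interval 0.17 to 0.83), with an unadjusted p of 0.00841 and an adjusted p of 0.308 in edgeR, so it did not pass over all genes. Gata4 KD c, with the least Gata2 of its group, was also the library with the most Gata4 left. The other libraries did not follow that order: Gata4 KD b had less Gata4 than Gata4 KD a (46.7 against 54.0 CPM) and also less Gata2. Among genes that mark Gata2-expressing cell types, the endothelial receptor Kdr had 5.06 to 6.19 CPM in Gata4 KD against 2.29 to 3.47 CPM in control. Pecam1 overlapped (7.0 to 9.22 against 3.07 to 7.75 CPM), as did the summed endothelial list (37.1 to 54.8 against 35.1 to 55.5 CPM) and the mast cell receptor Kit (0.551 to 0.941 against 0.874 to 1.12 CPM). The part of such cells in the Gata2 values was not tested.

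Gata3, the T helper cell and epithelial factor whose exon 4 holds the site closest to sgRNA1, was low in all libraries. Gata3 (ENSMUSG00000015619, chr2:9857078-9890034, minus strand) had 7.37, 8.73 and 8.35 CPM in control a, b and c and 7.69, 6.25 and 7.36 CPM in Gata4 KD a, b and c. The ranges overlapped, with the lowest value in Gata4 KD b. Its log2 fold change was -0.20 (SE 0.13, 95% interval -0.50 to 0.10, edgeR adjusted p 0.761), and without Gata4 KD b it was -0.12.

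Gata5 and Gata1 were not detectable as expressed genes at this depth. Gata5 (ENSMUSG00000015627, chr2:180325133-180334699, minus strand) had 6 counts in all, at most 2 in any library and 0 in 4 of them. Gata1 (ENSMUSG00000031162, chrX:7959260-7978071, minus strand), the erythroid factor, had 0 counts in all 9 libraries. A count of 0 allows up to 3 counts per library, or 0.0715 to 0.0961 CPM depending on its total, which covers counting error only. Neither was tested, and no fold change can be given.

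The FOG cofactors did not pass the test in Gata4 KD either. Zfpm2, which encodes FOG2 (ENSMUSG00000022306, chr15:40655035-41104592, plus strand), had 60.2, 81.1 and 61.5 CPM in control a, b and c and 66.3, 62.4 and 74.1 CPM in Gata4 KD a, b and c. All 3 Gata4 KD values fell between the lowest and the highest control. The means were 67.6 ± 11.7 and 67.6 ± 5.95 CPM (SD, n = 3) and the log2 fold change was -0.0013 (SE 0.13, 95% interval -0.30 to 0.29, edgeR adjusted p 0.999). Its sign changed between settings, and without control b the value was 0.15 (edgeR adjusted p 0.367).

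Zfpm1, which encodes FOG1, the GATA1 partner of red cells and megakaryocytes, was expressed here although Gata1 was at 0. Zfpm1 (ENSMUSG00000049577, chr8:122282141-122337251, plus strand) had 8.41, 6.75 and 6.99 CPM in control a, b and c and 8.35, 8.64 and 8.05 CPM in Gata4 KD a, b and c. Controls b and c were below all 3 Gata4 KD libraries and control a was among them. The log2 fold change was 0.18 (SE 0.13, 95% interval -0.11 to 0.47, edgeR adjusted p 0.780). It was 0.28 without control a and 0.12 without control b. Zfpm1 overlaps the annotated span of Gm20388 on the same strand, a gene with 5326 to 7442 counts, but 0 of its 75 base windows occur in another gene.

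**Figure D3:**
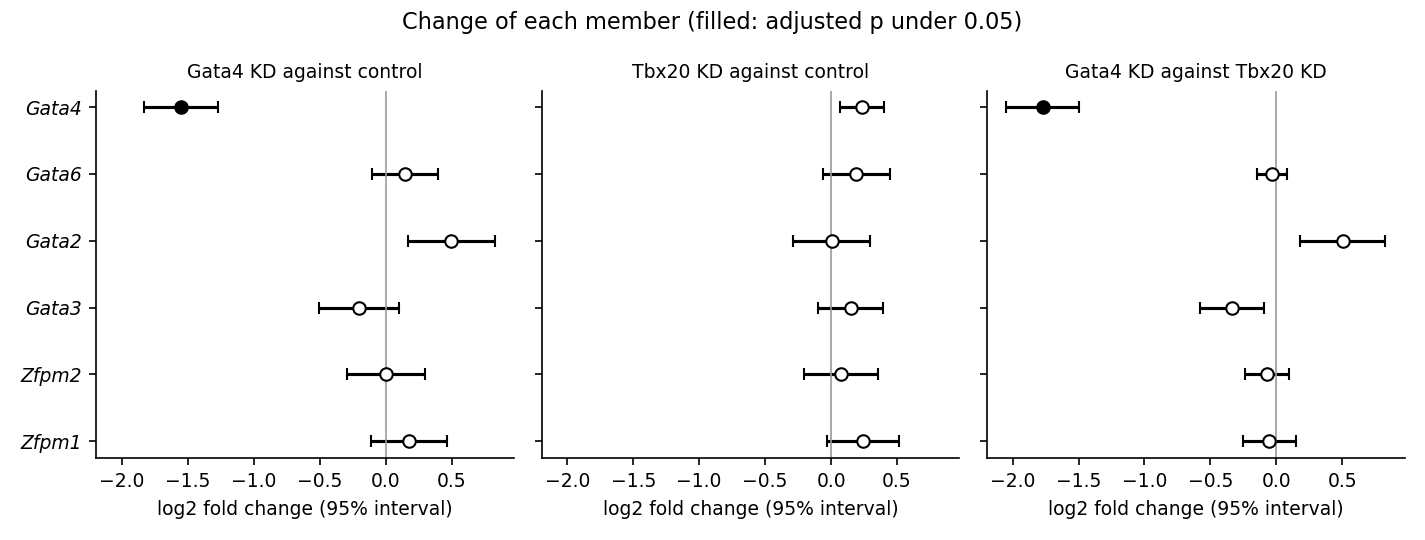
Log2 fold changes of the 6 tested members with 95% intervals in the 3 comparisons (x axis, zero line in grey); filled points passed an adjusted p of 0.05 in edgeR. Gata4 passed in both comparisons that hold Gata4 KD, at -1.55 and -1.77, and the 2 Gata2 intervals that leave out zero belong to the same comparisons, at 0.50 in each. Gata3 in Gata4 KD against Tbx20 KD (-0.58 to -0.10) and Gata4 in Tbx20 KD against control (0.06 to 0.40) also leave out zero.

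Compared per kilobase of exon, so that genes of different length can be set side by side, Gata4 stood at 41.6 ± 1.75 CPM per kb in control (SD, n = 3). It was followed by Zfpm2 at 7.09 ± 1.23 and Gata6 at 6.17 ± 0.91 CPM per kb, whose library ranges overlapped. Gata2 came next at 3.14 ± 0.41, then Zfpm1 at 2.11 ± 0.26 and Gata3 at 2.05 ± 0.18 CPM per kb, the last 2 overlapping. With this length, the same order of means held in Gata4 KD and in Tbx20 KD. The exon union and the longest transcript were 3904 and 3400 bases for Gata4 but 6508 and 3784 bases for Gata6. They were 5398 and 3571 bases for Gata2 and 9536 and 5791 bases for Zfpm2. Levels, shares and ratios across genes, here and below, therefore depend on the choice of length. Even after the fall, Gata4 at 14.2 ± 2.43 CPM per kb was above Zfpm2 at 7.09 ± 0.62 and Gata6 at 6.82 ± 0.13 CPM per kb, without overlap of libraries. In the knockdown groups Zfpm1 and Gata3 no longer overlapped.

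Gata4 thus made up 76.2 to 80.2% of all GATA transcript per length in control, 47.4 to 57.6% in Gata4 KD and 78.2 to 80.6% in Tbx20 KD. The share of Gata6 was 10.2 to 13.9% in control and 23.6 to 27.4% in Gata4 KD, and that of Gata2 was 5.36 to 6.67% and 12.4 to 18.9%. All of these shares have Gata4 in their denominator. Within each library, Gata4 exceeded Gata6 per length by 7.31, 5.50 and 7.78 times in control a, b and c and by 2.07, 1.73 and 2.44 times in Gata4 KD a, b and c. On the log2 scale the Gata6 to Gata4 ratio was 1.72 higher in Gata4 KD than in control, with no overlap (two-sided exact permutation p 0.1, the smallest that 3 against 3 libraries can give). Gata4, the knocked-down gene, is the denominator here too, so the separation restates its fall (-1.55 beside 0.14 for Gata6) and is no evidence of a change in Gata6. Zfpm2 per Gata4 likewise went from 0.149 to 0.215 in control to 0.463 to 0.547 in Gata4 KD, again with Gata4 below the line.

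The sum of Gata4 and Gata6, the members of the cardiac subfamily that were detected, was 47.8 ± 0.84 CPM per kb in control and 21 ± 2.43 CPM per kb in Gata4 KD (SD, n = 3). It fell by 56.0%, with all Gata4 KD libraries (18.9 to 23.7) below all controls (46.8 to 48.3), and the exact permutation p was again 0.1. Gata4, the knocked-down gene, made up most of this sum (41.6 CPM per kb in control). The separation and its p therefore restate the fall of Gata4. Gata6, Gata2 and Gata3 together summed to 10.5 to 12.4 CPM per kb in control and 12.3 to 13.5 CPM per kb in Gata4 KD, ranges that overlapped slightly. Their mean difference was 1.68 CPM per kb against a difference of -27.4 CPM per kb for Gata4, or 6.13% of the size of the fall. Of that 1.68, Gata2 gave 1.29, Gata6 0.654 and Gata3 -0.265 CPM per kb. In Tbx20 KD, where Gata4 did not fall, Gata6, Gata2 and Gata3 summed to 12.2 to 12.7 CPM per kb. That mean was 1.01 CPM per kb above control, with ranges that overlapped.

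**Figure D4:**
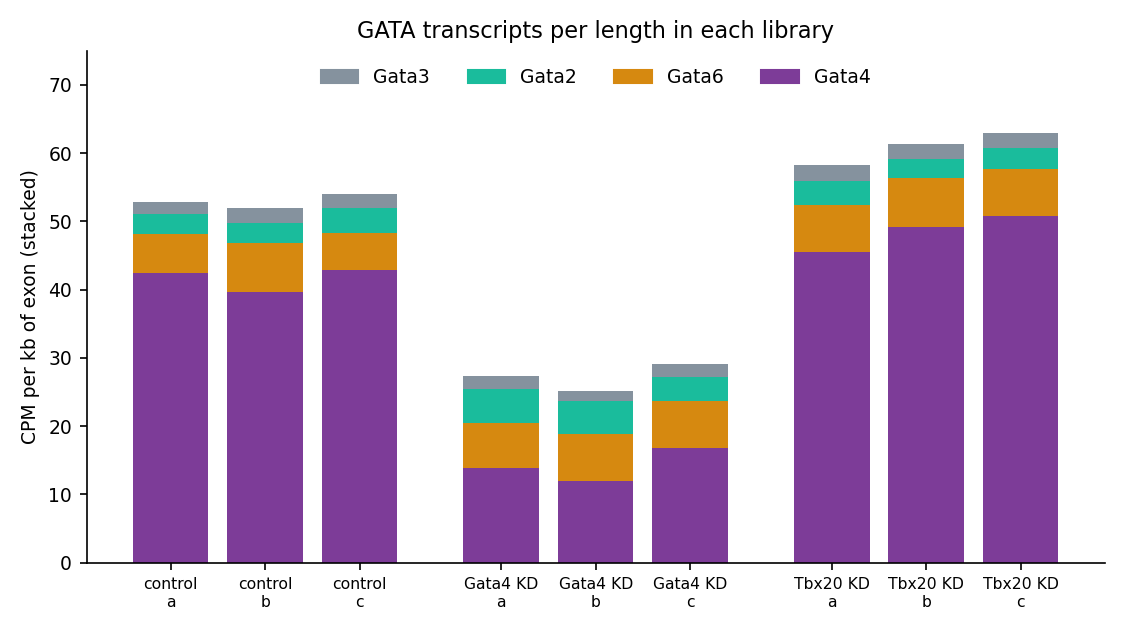
Stacked CPM per kb of exon of Gata4, Gata6, Gata2 and Gata3 in each of the 9 libraries (y axis linear from 0). The total falls from 52.0 to 54.0 CPM per kb in control to 25.2 to 29.1 CPM per kb in Gata4 KD, while the segments other than Gata4 sum to 10.5 to 12.4 and 12.3 to 13.5 CPM per kb.

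In Tbx20 KD the question was whether loss of the other cardiac factor moved the GATA family. Tbx20 had 391 ± 61.8 CPM there against 1002 ± 278 CPM in control (SD, n = 3), a log2 fold change of -1.35, with separate ranges. Its call depended on the test: the adjusted p was 0.748 in edgeR, but 0.0318 in edgeR with no filter on low counts, 3.47e-08 in DESeq2, and 2.38e-06 and 4.48e-17 in exact tests with tagwise and common dispersion. Of the 6 members tested, 0 passed an adjusted p of 0.05 in edgeR, with 0.00687% of 14547 genes passing. DESeq2 and both exact tests also called 0 members. At an unadjusted p under 0.05 there was 1 member, Gata4, against 2.69% of all genes, and Gata4 was also the 1 member with separate ranges, against 6.74%. With library size alone as the scaling, the ranges of Gata3 and Zfpm1 were separate too, both higher in Tbx20 KD. The share over all genes is for TMM scaling only.

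Gata4 had 178, 192 and 198 CPM in Tbx20 KD a, b and c, above all 3 controls. Its log2 fold change was 0.23 (SE 0.07, 95% interval 0.06 to 0.40, unadjusted p 0.0125, edgeR adjusted p 1.0), so it did not pass over all genes. Gata6 had 44.2, 47.3 and 44.9 CPM in Tbx20 KD a, b and c, a log2 fold change of 0.19 (95% interval -0.06 to 0.44) that was 0.12 without control c and 0.32 without control b. The values of Zfpm1 were 8.28 to 9.27 CPM, with a log2 fold change of 0.24 (95% interval -0.03 to 0.51). Gata3 was at 8.68 to 9.37 CPM with 0.15 (-0.10 to 0.40) on the log2 scale, Zfpm2 at 67.8 to 72.9 CPM with 0.08 (-0.20 to 0.36), and Gata2 at 14.9 to 19.1 CPM with 0.01 (-0.29 to 0.30). The Gata6 to Gata4 ratio differed from control by -0.03 on the log2 scale (two-sided exact permutation p 0.9). The summed level of both genes was 16.1% higher, at 55.5 ± 2.77 CPM per kb (SD, n = 3, exact permutation p 0.1, the smallest possible). Gata4 gave 6.88 of the 7.70 CPM per kb difference, so the sum and its p mostly restate the Gata4 values above.

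Setting Gata4 KD directly against Tbx20 KD compares cells that all received guides against a gene. Of 6 members tested, 1 passed an adjusted p of 0.05 in edgeR, again Gata4 (log2 fold change -1.77, SE 0.12, edgeR adjusted p 0.00130), with 1.44% of 14477 genes passing. At an unadjusted p under 0.05 there were 3, Gata4, Gata2 and Gata3, against 16.7% of all genes, and the same 3 had separate ranges, against 23.0%.

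Gata2 was 23.9 ± 3.81 CPM in Gata4 KD and 16.9 ± 2.10 CPM in Tbx20 KD (SD, n = 3), and the lowest Gata4 KD library exceeded the highest Tbx20 KD library by 0.468 CPM. Its log2 fold change was 0.50 (SE 0.14, 95% interval 0.18 to 0.82, edgeR adjusted p 0.136). This call depended on the test and on Gata4 KD c: the adjusted p was 0.0238 in DESeq2, 0.0263 in an exact test with tagwise dispersion and 0.0191 in edgeR without Gata4 KD c.

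Gata3 lay at 6.25 to 7.69 CPM in Gata4 KD and 8.68 to 9.37 CPM in Tbx20 KD, a log2 fold change of -0.34 (SE 0.10, 95% interval -0.58 to -0.10, edgeR adjusted p 0.166). Gata6 had the narrowest interval of the 6 tested members, -0.15 to 0.08 around -0.03 on the log2 scale. Zfpm2 at -0.07 (-0.23 to 0.10) and Zfpm1 at -0.05 (-0.25 to 0.15) were also near zero.

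Proteins that work with GATA4 or with the FOG cofactors were examined as gene lists in the same fits. Of 19 genes of GATA4 partners, 16 were tested, and in Gata4 KD against control 0 passed, by an adjusted p or an unadjusted p under 0.05 in edgeR, where 0.380% and 8.54% of all genes did. DESeq2 called 0 and an exact test with a common dispersion called 1, Tbx20. The list median was 0.09 on the log2 scale beside -0.02 over all genes, with 12 values above and 4 below zero. Tbx20, the T-box partner, was at 698 ± 199 CPM (SD, n = 3), and its log2 fold change was -0.52 (95% interval -1.08 to 0.03) with overlapping ranges. Single libraries weighed on it, with -0.31 without control b, -0.34 without Gata4 KD b and -0.73 without Gata4 KD c. Nfatc4, a calcineurin-dependent factor, had 24.9 ± 3.34 against 21.2 ± 0.60 CPM, and Klf13, a Krüppel-like partner, 45.3 ± 2.55 against 39.9 ± 2.77 CPM (SD, n = 3). Their log2 fold changes were 0.24 (-0.02 to 0.49) and 0.18 (-0.02 to 0.39). Of the 16 partners tested, 4 had separate ranges, all higher in Gata4 KD (Nfatc4, Klf13, Smad3 and Ep300), where 13.8% of all genes had separate ranges in either direction. With library size alone as the scaling, the ranges of Ep300 overlapped. The cardiac partner Nkx2-5 had at most 9 counts in a library, Hand1 at most 2 and Isl1 at most 3, so these were not tested.

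All 16 genes of the FOG corepressors, which are the CtBP proteins, the NuRD deacetylase subunits and the nuclear receptor Nr2f2, were tested. In Gata4 KD against control 0 passed an adjusted p in edgeR or in DESeq2, where 0.380% of all genes passed in edgeR. Nr2f2 alone had an unadjusted p under 0.05, 1 of 16 where 8.54% of all genes had one. The median was 0.0014 on the log2 scale, and 8 values lay on each side of zero. Nr2f2 was at 27.3 to 42.7 CPM in control and 43.1 to 46.0 CPM in Gata4 KD, and its log2 fold change was 0.39 (95% interval 0.05 to 0.73, edgeR adjusted p 0.504). Without control b it was 0.58 with an edgeR adjusted p of 0.0409. Chd3, a NuRD helicase, was at 152 ± 11.9 against 138 ± 4.90 CPM, and Gatad2a, a GATA-finger subunit of NuRD, at 95.7 ± 4.52 against 90.5 ± 3.77 CPM (SD, n = 3), both with overlapping ranges.

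Of 9 other genes with a GATA-type zinc finger, all tested, 0 passed an adjusted p in edgeR or DESeq2 in Gata4 KD against control, where 0.380% of all genes passed in edgeR. At an unadjusted p under 0.05 there was 1 (Trps1), where 8.54% of all genes had one. The list median was 0.05 on the log2 scale. Trps1, a repressor with a GATA finger, was at 53.8 ± 2.54 against 42.5 ± 8.76 CPM (SD, n = 3), a log2 fold change of 0.34 (95% interval 0.02 to 0.66, edgeR adjusted p 0.561) with overlapping ranges. Rere, a corepressor of the atrophin family, was at 135 ± 9 against 126 ± 5.71 CPM (SD, n = 3).

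Genes known as GATA4 targets in cardiomyocytes, gonad or other cells were mostly off in these cultures. Of 22 listed, 9 passed the filter in Gata4 KD against control, and Nppa and Myl3 were at 0 in all libraries. Among the 9, 0 passed an adjusted p in edgeR or DESeq2, where 0.380% of all genes passed in edgeR. The log2 fold changes had 2 values above and 7 below zero and a median of -0.05. An unadjusted p under 0.05 was found for 1 of the 9 (8.54% of all genes). That one was Tnnc1, the cardiac and slow troponin C, at 1.98 to 2.46 CPM in Gata4 KD and 2.94 to 3.92 CPM in control, without overlap. Its log2 fold change was -0.62 (95% interval -1.05 to -0.19, edgeR adjusted p 0.332), and in Tbx20 KD, which shares these controls, it was -0.49 (-0.87 to -0.10, edgeR adjusted p 1.0). Slc8a1, the sodium-calcium exchanger, was at 9.12 ± 2.02 against 12.1 ± 2.3 CPM with overlap, and Ccnd2, cyclin D2, at 1295 ± 35.2 against 1446 ± 52.0 CPM without overlap (SD, n = 3). Their log2 fold changes were -0.41 (-0.85 to 0.03) and -0.16 (-0.33 to 0.01). Tnnc1 and Ccnd2 were the 2 of 9 targets with separate ranges, against 13.8% of all genes. Both were also lower without overlap in Tbx20 KD against the same controls, Ccnd2 at 1340 ± 37.9 CPM (SD, n = 3). There, 3 of 10 targets tested had separate ranges, all lower, against 6.74% of all genes in either direction.

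Across the other comparisons of these lists, 0 genes passed an adjusted p of 0.05 in edgeR. Over all genes, 0.00687% passed in Tbx20 KD against control and 1.44% in Gata4 KD against Tbx20 KD. DESeq2 called Tbx20 in Tbx20 KD against control, and Tbx20, Chd3, Nr2f2 and the Polycomb-associated Jarid2 between the knockdowns. In Gata4 KD against Tbx20 KD, 7 of 16 GATA4 partners had an unadjusted p under 0.05. Tbx20, the gene knocked down in the second group, is among these 7 and so differs by design. The number was 4 of 16 FOG corepressors, 1 of 9 other GATA-finger genes and 3 of 10 targets, where 16.7% of all genes had such a p. In Tbx20 KD against control it was 1 of 16 partners (Tbx20 itself), 0 of 16 corepressors, 0 of 9 GATA-finger genes and 2 of 10 targets, against 2.69%.

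**Figure D5:**
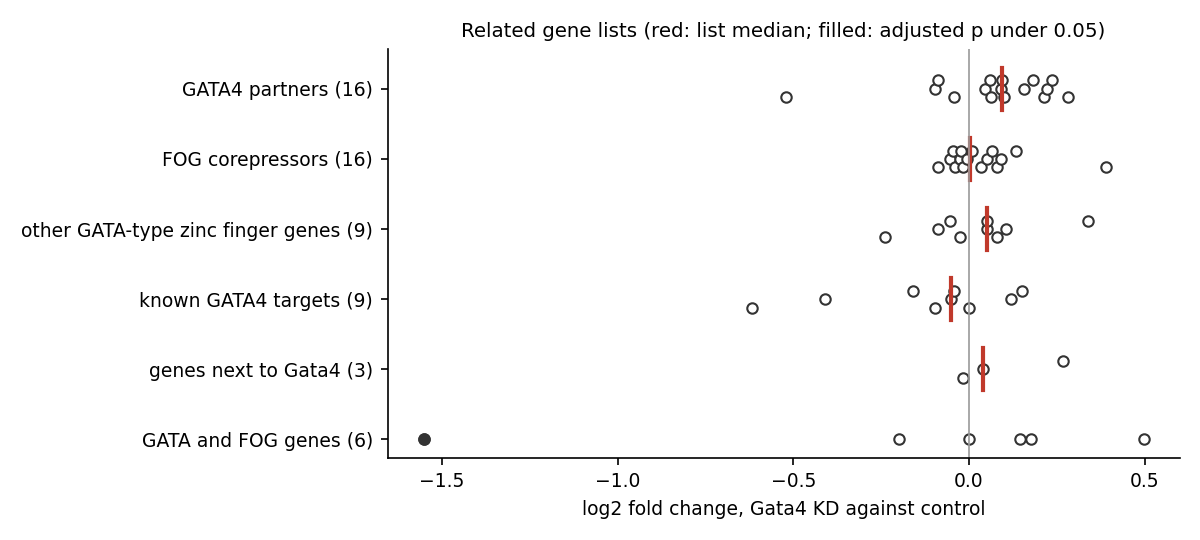
Log2 fold changes in Gata4 KD against control (x axis) of the tested genes of each list, with the number tested in parentheses, the list median as a red bar and the 6 tested GATA and FOG genes at the bottom. Gata4, at -1.55, is the 1 filled point, and the list medians lie between -0.05 and 0.09.

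Since both Gata4 guides match sites within Gata4, the genes beside it were read as well. Within 100 kb, 4 annotated genes were in the table, and the small nuclear RNA gene Gm23629 was at 0. Neil2, a DNA glycosylase gene 5.07 kb away, had 23 to 60 counts and a log2 fold change of 0.27 (95% interval -0.50 to 1.04) in Gata4 KD against control. Fdft1, which encodes squalene synthase, lies 19.3 kb away and was at 38.2 ± 2.56 against 37.2 ± 6.42 CPM (SD, n = 3), a log2 fold change of 0.04 (-0.26 to 0.34). Ctsb, the cathepsin B gene 53.0 kb away, was at 348 ± 30.6 against 352 ± 27.1 CPM (SD, n = 3), with -0.02 (-0.24 to 0.20). All 3 overlapped with control, and 0 passed an adjusted p of 0.05 in edgeR or DESeq2 in any comparison. In edgeR, 0.380% of all genes passed in Gata4 KD against control and 1.44% between the knockdowns. Against control, 0 had an unadjusted p under 0.05 in edgeR, where 8.54% of all genes had one in Gata4 KD. Between the knockdowns Fdft1 had one (1 of 3, against 16.7% of all genes). Its log2 fold change there was 0.25 (0.03 to 0.46, edgeR adjusted p 0.243). Those ranges were separate, but overlapped with library size alone.

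The genes whose level over the 9 libraries ran most like each member were listed among 10012 genes with a mean of at least 5 CPM. Pearson's r of log2 CPM is given as a description, since all members share the same libraries and group differences. For Gata4 the closest were Nr1h4 (r 0.989), a bile acid receptor, Creb3l1 (0.987), a membrane-bound transcription factor, and Pacs2 (0.983), a sorting protein. Taken as deviations from group means, their r was 0.908, 0.755 and 0.974. The most opposite were Arrdc3 (r -0.989), Pde4d (-0.989), which degrades cyclic AMP, and Ripk2 (-0.981), a kinase of innate immunity, with -0.803, -0.653 and -0.815 as deviations.

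Gata6 ran most like Zfp955a (r 0.977), Nfatc3 (0.975) and Trim30d (0.972) and most opposite to S100a13 (-0.989), Tyw1 (-0.975) and Ppil2 (-0.974). Gata2 ran most like Ncs1 (0.973), a neuronal calcium sensor, Tnk2 (0.972), a tyrosine kinase, and Mllt11 (0.961), and most opposite to Dtx4 (-0.979), Cd82 (-0.973) and Tcea3 (-0.972). Zfpm2 was nearest to Mff (0.969), Pnrc2 (0.962) and Pmepa1 (0.953) and farthest from Pusl1 (-0.981), Pla2g6 (-0.976) and Nadk (-0.970). As deviations from group means, all of these values for Gata6, Gata2 and Zfpm2 stayed at 0.898 or more in size. The low genes Gata3 and Zfpm1 had weaker matches: Gpx8 (0.915) and Prss23 (0.893) were nearest to Gata3, with Tnxb (-0.919), Pde10a (-0.905) and Jam2 (-0.892) opposite. Minpp1 (0.898), Washc5 (0.863) and Eif1 (0.847) were nearest to Zfpm1, with Snw1 (-0.922), Tmem35a (-0.886) and Cryzl1 (-0.877) opposite. As deviations from group means, the r of the genes named for Gata3 was 0.737, 0.731, -0.757, -0.709 and -0.685. For Zfpm1 it was 0.929, 0.691, 0.920, -0.941, -0.750 and -0.915, in the order named.

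Promoter windows of 300 bases from RefSeq (GRCm38.p6) were at hand for 5 of the 8 members: Gata1, Gata2, Gata3, Gata5 and Zfpm1. The GATA motif, searched on both strands as the letters GATA with A or T before and A or G after, was found once in the Gata3 window and not in those of the other 4, and 29.8% of 32851 promoter windows held it. A match or its lack in this window says nothing of binding.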

How the data were processed

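Polyadenylated RNA was sequenced as 75 base single-end reads. The authors filtered and trimmed reads on base quality and ran RSEM with Bowtie2 against GRCm38 in the reverse-strand setting. The deposited values are expected counts per gene, whole and without normalization. Reads that fit several genes are shared out between them by RSEM. The submitters' processing notes name mm9, Bowtie and RSEM instead, and the annotation release is not given in the sources used here. Symbols, lengths and positions came from GENCODE M21 (GRCm38), which matched 37607 of 38924 IDs. 0 columns of the table belonged to no sample.

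Groups came from the guide RNA in the labels. Each comparison was fitted on its 6 libraries in R 4.3.3 with edgeR 4.0.16 (filterByExpr, TMM, glmQLFit, glmQLFTest, Benjamini-Hochberg over all genes tested, threshold 0.05, no covariate). Intervals are 95% intervals of the fit. CPM was scaled by TMM over all 9 libraries, and CPM per kb divides it by the union of exons. Ratios and sums were compared by two-sided exact permutation tests (scipy). For likeness, log2 CPM used a prior count of 2. The procedure was tested on simulated data.

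The members, gene lists and tests were chosen with earlier results of these data known. Named were all members, Tbx20, from each list any gene past an adjusted p of 0.05 or else the 3 of smallest p in Gata4 KD against control, all tested neighbours of Gata4, and the 3 genes most and least like each member, leaving out predicted or clone symbols; a gene this rule also named is not reported here. Genes that passed only in an alternative were named after their values were seen, as were undetected genes and markers.

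Alternatives were DESeq2 1.42.0, library size alone, no filter, CPM above 1 in 2 libraries, exact tests with tagwise or common dispersion, a single fit of all 9 libraries, a block on the replicate letter, the longest transcript as length, and leaving out each library. Counts of replicates in a group differed beyond sampling noise (chi-square divided by its degrees of freedom 6.20 or more).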

Additional observations from a re-analysis of the deposited data

How the results depend on the processing

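Gata4 in Gata4 KD passed under all 14 alternatives against control (log2 fold change -1.67 to -1.44, adjusted p up to 0.0345) and all 14 against Tbx20 KD. Of the other members, 0 passed against control in either knockdown under any alternative run. Against Tbx20 KD, 2 members were called (Gata4 and Gata2) under DESeq2 and under both exact tests, and 1 to 2 when 1 library was left out, 2 of them without Gata4 KD c.

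Signs of values near zero turned. Zfpm2 in Gata4 KD against control was 0.0086 in DESeq2, 0.0087 with the replicate block and from -0.078 to 0.15 with 1 library left out. Gata2 in Tbx20 KD was -0.0049 with all 9 libraries in one fit and from -0.093 to 0.12 with 1 library left out, Zfpm2 there -0.0053 to 0.24, and the log2 Gata6 to Gata4 ratio in Tbx20 KD -0.13 to 0.12. Leaving out 1 library also moved Gata3 in Tbx20 KD from 0.15 to 0.07 (without control a). With the longest transcript as length, the fall of summed Gata4 and Gata6 was -30.4 in place of -26.8 CPM per kb.

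Among list genes, 1 GATA4 partner (Tbx20) was called in Gata4 KD under the exact test with common dispersion, and 1 (Tbx20) in Tbx20 KD under DESeq2, no filter and both exact tests. In Gata4 KD against Tbx20 KD, 2 partners (Tbx20 and Jarid2) were called under DESeq2 and both exact tests, and 0 to 2 with 1 library left out (Jarid2 and Klf13 without Gata4 KD c). For FOG corepressors these were 2 (Chd3 and Nr2f2) under DESeq2 and the exact test with tagwise dispersion, 0 to 2 with 1 library left out (without Gata4 KD c), and 0 to 1 in Gata4 KD against control (Nr2f2 without control b). Of targets, 1 (Slc8a1) was called under the exact test with common dispersion.

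Over all genes, the 55 calls in Gata4 KD against control became 264 in DESeq2, 121 with no filter, 250 and 446 in the exact tests with tagwise and common dispersion, 148 with all 9 libraries in one fit, 6 without control a, 189 without control b, 14 without control c, 10 without Gata4 KD a and 9 without Gata4 KD b. The 1 call in Tbx20 KD became 12 in DESeq2, 2 with no filter, 8 and 104 in the exact tests and 5 without control b. The 208 calls between knockdowns became 743 in DESeq2, 324 with no filter, 729 and 1054 in the exact tests, 22 without Gata4 KD a, 55 without Gata4 KD b, 801 without Gata4 KD c, 104 without Tbx20 KD a, 28 without Tbx20 KD b and 27 without Tbx20 KD c. The cause of these shifts was not tested.

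No label says what libraries of the same letter share. Deviations from group means had r from -0.17 to 0.25 for same-lettered libraries and from -0.39 to 0.35 for other-lettered ones. In 6 of 9 libraries the highest r with another group was with a library of their own letter. These values do not settle whether the letters are matched. With the replicate block, calls over all genes were 5, 2 and 101 in the same order of comparisons, and members called were 1, 0 and 1. For the log2 Gata6 to Gata4 ratio and the sum, pairing cannot move the mean difference (1.72 and -26.8 in Gata4 KD), and the two-sided exact sign-flip p was 0.25, the smallest for 3 pairs. Gata5 and Gata1, at 0 to 2 counts per library, could not be tested.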
